A study of Homo sapiens with 9 samples.

Results

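The RNA of 10 genes of signalling by fibroblast growth factors (FGFs) was followed, and signalling itself was not measured. The genes are the receptors FGFR1, FGFR2, FGFR3 and FGFR4, the receptor-like FGFRL1, the ligand FGF2, the sprouty inhibitors SPRY1, SPRY2 and SPRY4, and the phosphatase DUSP6. They were matched by symbol and are 10 of the 58735 gene identifiers in the count table. The genes were chosen from measured values: the list was drawn up with the differences between these same groups known. The values of the 10 genes are therefore a description, and no p-value is given for them.

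RNA was sequenced from 786-0 cells, a line of clear cell renal cell carcinoma, in 3 groups of 3 libraries. The groups were WT cells without the drug (untreated), WT cells given 10 µM PT2385 (PT2385), and a HIF2α knockout of the line (KO). PT2385 is a small molecule that binds HIF2α and keeps it from pairing with its partner HIF1β. All cells were kept for 48 h at 21% oxygen in DMEM with 5 mM glucose and 10% FBS, and no vehicle is named for the untreated cells. In all 3 groups the cells lack working VHL, and a mutation leaves their HIF1A gene inactive. The KO is 1 line, and how it was made, and whether it is a clone, is not given in the sources used here. A difference between KO and WT that follows from the loss of HIF2α cannot be told apart from one that arose when the line was made. Nothing says that the libraries of a group came from separate cultures, so p-values measure only the spread between these libraries, which may be technical.

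The total count per library ran from 11881000 to 12296841 in untreated cells, from 12209143 to 14318384 with PT2385 and from 12893484 to 14730081 in KO. EPAS1, which encodes HIF2α (ENSG00000116016, chromosome 2, 46293667 to 46386697, GRCh38), had 3226, 3210 and 2788 counts in the untreated libraries and 3075, 3317 and 3132 with PT2385. It had 262, 360 and 307 counts in KO, which is 8.65% of the untreated level in CPM (counts scaled to a common library size). EPAS1 counts thus set the KO libraries apart from the other 6, and do not separate untreated from PT2385 libraries. The 6 markers of renal epithelium and carcinoma lines summed to between 5860 and 6560 CPM in every library. VIM was the most abundant and made up most of this sum (mean 4730 CPM in untreated cells, 4400 with PT2385 and 4260 in KO). Other members of that list differed in opposite directions under this sum: PAX2 had 34.2, 25.3 and 13.7 CPM in the same order, KRT18 161, 223 and 289, and KRT8 405, 487 and 586. The 3 endothelial markers summed to at most 0.54 CPM and the 3 leukocyte markers to at most 1.23 CPM. Of the 4 fibroblast markers, DCN was at 0 in every library. Their sum was 8.74 to 10.1 CPM in untreated cells, 10.6 to 13.2 with PT2385 and 5.21 to 7.04 in KO. PDGFRB, another of these 4, had 27 to 31 counts in untreated libraries and 0 to 2 in KO, while LUM had 15 to 22 in untreated libraries and 31 to 60 in KO. The RNA came from many cells at once, so fewer cells of a type and less RNA per cell cannot be told apart.

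FGFs bind receptor tyrosine kinases at the cell surface together with heparan sulphate, and the activated receptor passes its signal through the adaptor FRS2 to the RAS-ERK cascade. ERK activity in turn induces sprouty proteins, which dampen the pathway upstream, and DUSP6, a phosphatase that inactivates ERK in the cytoplasm. FGF receptors are among the kinases hit by drugs used in renal carcinoma.

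FGFR3 (ENSG00000068078, chromosome 4, 1793293 to 1808872, GRCh38 as for all positions here) had the widest differences of the receptors. Its counts were 82, 68 and 56 in untreated cells, 130, 119 and 148 with PT2385, and 16, 19 and 19 in KO. The 3 groups did not overlap: every PT2385 library lay above every untreated one, and every KO library below. The means were 5.71 ± 1.11 CPM (SD, n = 3) in untreated cells, 9.9 ± 0.91 with PT2385 and 1.29 ± 0.0467 in KO. Against untreated cells, FGFR3 rose by a log2 fold change of 0.79 with PT2385 (standard error 0.163, 95% interval 0.432 to 1.14) and was at -2.13 in KO (standard error 0.227, interval -2.63 to -1.63). FGFR3 thus stood on opposite sides of the untreated level with PT2385 and in KO. Without untreated replicate 2 the value with PT2385 was 0.78 and no longer past the threshold. KO was at -2.94 against PT2385 (standard error 0.183). A gene is said to rise or fall where its adjusted p over all tested genes was under 0.05, and intervals cover only the counting error and the spread between these libraries.

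FGFR4 (ENSG00000160867, chromosome 5, 177086905 to 177098144) was the other FGFR gene that fell in KO. Its level was 43.3, 43.6 and 52.1 CPM in untreated cells, 50.5, 57.4 and 64.2 CPM with PT2385, and 22.2, 30.7 and 18.3 CPM in KO. The KO libraries lay below all others, while the lowest PT2385 library lay below the highest untreated one. The means were 46.3 ± 5.01, 57.4 ± 6.83 and 23.7 ± 6.35 CPM. The log2 fold change was -0.95 in KO (standard error 0.157, 95% interval -1.3 to -0.608) and -1.28 in KO against PT2385 (standard error 0.161). With PT2385 it was 0.30 (standard error 0.0992, interval 0.0887 to 0.521), which was not past the threshold, and it was past it without PT2385 replicate 1, at 0.38, and with the replicate number as a block, at 0.30.

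FGFR2 (ENSG00000066468, chromosome 10, 121478332 to 121598458) was higher in both altered groups. Its level was 19.5, 21.0 and 19.7 CPM in untreated cells, 29.0, 34.1 and 31.0 CPM with PT2385, and 21.4, 39.4 and 33.5 CPM in KO. Neither group overlapped the untreated libraries, but KO replicate 1 lay close above them and the KO spread was wide (coefficient of variation 29.1%, against 4.02% in untreated cells). The means were 20.1 ± 0.807, 31.4 ± 2.55 and 31.4 ± 9.14 CPM. The log2 fold change was 0.64 with PT2385 (standard error 0.0934, 95% interval 0.437 to 0.845) and 0.66 in KO (standard error 0.179, interval 0.269 to 1.06). In KO it was no longer past the threshold without KO replicate 2 (0.47), without untreated replicate 1 (0.64) or without untreated replicate 3 (0.65). KO and PT2385 differed by 0.00 (interval -0.391 to 0.395), which leaves room for a difference in either direction.

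FGFR1 (ENSG00000077782, chromosome 8, 38400215 to 38468834) was past the threshold in none of the 3 comparisons. It had 103, 104 and 108 CPM in untreated cells, 102, 106 and 116 CPM with PT2385, and 93.7, 104 and 85.9 CPM in KO. All 3 groups overlapped. The log2 fold change was 0.04 with PT2385 (95% interval -0.106 to 0.179), -0.14 in KO (-0.303 to 0.0251) and -0.19 in KO against PT2385 (-0.382 to -0.00738). In KO against untreated cells it ran from -0.212 to -0.0733 on leaving out 1 library. FGFR1 exons overlap those of LETM2 on the opposite strand, which had 482 counts over the 9 libraries against 12092 for FGFR1. The strand setting of the counting is not given in the sources used here, so reads of overlapping genes may have been assigned to either.

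FGFRL1 (ENSG00000127418, chromosome 4, 1009936 to 1026898) encodes a receptor that binds FGFs but has no tyrosine kinase domain. Its level was 218, 207 and 237 CPM in untreated cells, 214, 231 and 244 CPM with PT2385, and 152, 155 and 167 CPM in KO. The KO libraries lay below all others, and the other groups overlapped. The means were 221 ± 15.1, 230 ± 15.1 and 158 ± 7.95 CPM. In KO FGFRL1 fell: its log2 fold change was -0.47 (95% interval -0.622 to -0.323, standard error 0.0681), and it was at -0.55 against PT2385 (standard error 0.0727). The value with PT2385 was 0.05 (standard error 0.0689, interval -0.0957 to 0.205), and 0.0153 to 0.111 on leaving out 1 library.

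HIF2α binds DNA at short motifs, so windows at the starts of FGFR3, FGFR4, FGFRL1 and FGFR2, the 4 receptor genes past the threshold in KO, are shown, from 250 bases before to 50 bases after a RefSeq start (GRCh38.p14). Windows were matched by symbol for 9 of the 10 genes, FGFR1 being the other. Where the table held several starts of a gene, the one farthest upstream was taken. The FGFRL1 window lies inside the gene as GENCODE annotates it, downstream of the start at 1009936. The motifs searched were ACGTG and GCGTG on both strands, so that CACGT and CACGC mark the reverse strand, and capitals mark the matches. The windows are FGFR3 at chr4:1793043-1793342 (plus strand, 3 matches), FGFR4 at chr5:177086665-177086964 (plus strand, 2 matches), FGFRL1 at chr4:1012214-1012513 (plus strand, 2 matches that overlap as CACGTG) and FGFR2 at chr10:121598395-121598694 (minus strand, 1 match).
FGFR3: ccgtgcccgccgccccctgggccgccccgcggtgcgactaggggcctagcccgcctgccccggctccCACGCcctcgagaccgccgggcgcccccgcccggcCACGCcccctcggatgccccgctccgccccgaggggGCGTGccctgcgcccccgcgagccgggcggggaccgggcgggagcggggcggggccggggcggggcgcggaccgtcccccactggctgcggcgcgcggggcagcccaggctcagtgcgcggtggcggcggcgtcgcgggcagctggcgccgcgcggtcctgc
FGFR4: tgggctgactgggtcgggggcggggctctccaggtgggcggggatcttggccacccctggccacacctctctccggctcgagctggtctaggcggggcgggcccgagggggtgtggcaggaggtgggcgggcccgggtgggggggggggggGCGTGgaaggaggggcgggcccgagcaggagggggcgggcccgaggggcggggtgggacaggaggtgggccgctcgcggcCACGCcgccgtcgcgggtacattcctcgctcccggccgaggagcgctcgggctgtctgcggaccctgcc
FGFRL1: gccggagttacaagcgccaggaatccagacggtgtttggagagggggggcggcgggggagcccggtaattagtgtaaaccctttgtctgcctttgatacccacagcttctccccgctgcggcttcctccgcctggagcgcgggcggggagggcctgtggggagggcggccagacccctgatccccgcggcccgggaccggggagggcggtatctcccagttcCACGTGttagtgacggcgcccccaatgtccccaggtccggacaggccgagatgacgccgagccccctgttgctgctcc
FGFR2: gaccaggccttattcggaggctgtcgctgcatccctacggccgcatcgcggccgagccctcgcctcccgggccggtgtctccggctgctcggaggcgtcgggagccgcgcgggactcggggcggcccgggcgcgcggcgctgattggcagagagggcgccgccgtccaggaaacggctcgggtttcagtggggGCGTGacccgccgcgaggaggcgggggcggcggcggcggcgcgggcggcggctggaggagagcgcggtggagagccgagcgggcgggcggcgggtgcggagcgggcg
Of 27305 such windows, 1 per gene, 21.6% hold ACGTG and 36.4% hold GCGTG, and 48.4% hold at least 1 match, 23.2% at least 2 and 10.2% at least 3. Of the 9 genes with a window, 7 had a match, SPRY2 and SPRY4 being the others. The FGFR3 window was 86.3% G and C, FGFR4 78.7%, FGFRL1 68.3% and FGFR2 79.3%, against a median of 58.3% over all windows. A match is a run of letters and no evidence of binding.

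FGF2 (ENSG00000138685, chromosome 4, 122826682 to 122898236), the basic fibroblast growth factor, was the ligand among the 10. Its level was 80.1, 92.3 and 102 CPM in untreated cells, 92.5, 105 and 106 CPM with PT2385, and 122, 146 and 138 CPM in KO. The KO libraries lay above all others, and the other groups overlapped. The means were 91.4 ± 11, 101 ± 7.24 and 135 ± 12.3 CPM. FGF2 rose in KO by a log2 fold change of 0.58 (standard error 0.0931, 95% interval 0.373 to 0.782) and by 0.42 over PT2385 (standard error 0.0851). The value with PT2385 was 0.14 (standard error 0.0887, interval -0.0554 to 0.331), and 0.049 to 0.226 on leaving out 1 library. NUDT6 overlaps FGF2 exons on the opposite strand and had 696 counts against 13048 for FGF2.

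**Figure D1:**
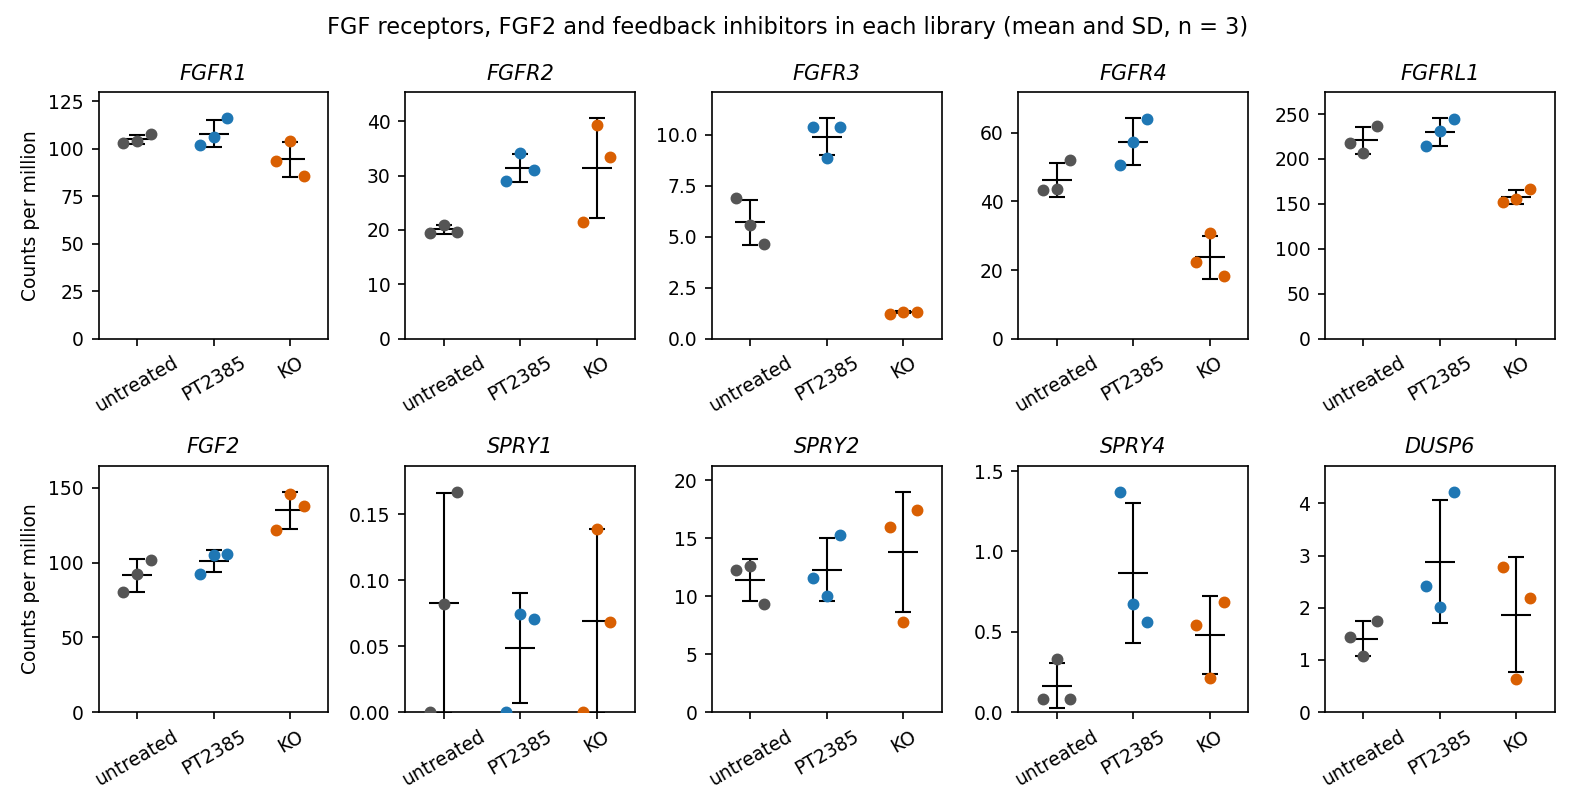
Level of the 10 genes in each library, in CPM on axes that start at 0, with dots for libraries and black bars for the mean and SD of 3 libraries. FGFR3 had 8.85 to 10.4 CPM with PT2385, 4.66 to 6.88 in untreated cells and 1.23 to 1.32 in KO, whereas the highest SPRY1 value was 0.167 CPM.

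Of the feedback inhibitors on the list, SPRY1, SPRY4 and DUSP6 were low. SPRY1 (ENSG00000164056, chromosome 4, 123396795 to 123403760) had 0 to 2 counts in every library, under the detection floor of 3 counts, and no fold is given. SPRY4 (ENSG00000187678, chromosome 5, 142310427 to 142326455) had 1, 4 and 1 counts in untreated cells, 17, 9 and 8 with PT2385, and 7, 3 and 10 in KO. The PT2385 libraries lay above the untreated ones, but SPRY4 was removed by the filter on low counts in all 3 comparisons. Its means were 0.165 ± 0.142, 0.866 ± 0.436 and 0.478 ± 0.244 CPM. Fitted with no filter, SPRY4 was past the threshold with PT2385, as were FGFR4 and DUSP6 beside FGFR2 and FGFR3.

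SPRY2 (ENSG00000136158, chromosome 13, 80335976 to 80341126) was the only one of the 3 sprouty genes that was tested. It had 147, 153 and 112 counts in untreated cells, 145, 135 and 218 with PT2385, and 208, 112 and 254 in KO. All groups overlapped. KO replicate 2 was the lowest of the 9 libraries in CPM (7.8), while the other KO libraries were the highest (16 and 17.4). The log2 fold change was 0.11 with PT2385 (95% interval -0.256 to 0.478) and 0.28 in KO (interval -0.278 to 0.834). Without KO replicate 2 it was 0.57 in KO and past the threshold. On leaving out 1 library the KO value ran from 0.0624 to 0.566.

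DUSP6 (ENSG00000139318, chromosome 12, 89347235 to 89352501) had 17, 13 and 21 counts in untreated cells, 30, 27 and 60 with PT2385, and 36, 9 and 32 in KO. The PT2385 libraries lay above the untreated ones with no overlap, and KO replicate 2 was again the lowest of the 9 libraries. The means were 1.41 ± 0.34, 2.88 ± 1.18 and 1.87 ± 1.11 CPM. The log2 fold change with PT2385 was 1.03 (standard error 0.328, 95% interval 0.31 to 1.74), which was not past the threshold, but was with the replicate number as a block (1.0), and in KO it was 0.40 (standard error 0.448, interval -0.59 to 1.38). An increase in KO of the size seen with PT2385 lies within that interval, and leaving out 1 library moved the KO value between 0.01 and 0.82. The value with PT2385 was 0.64 without PT2385 replicate 3 and at most 1.23 on leaving out another library.

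**Figure D2:**
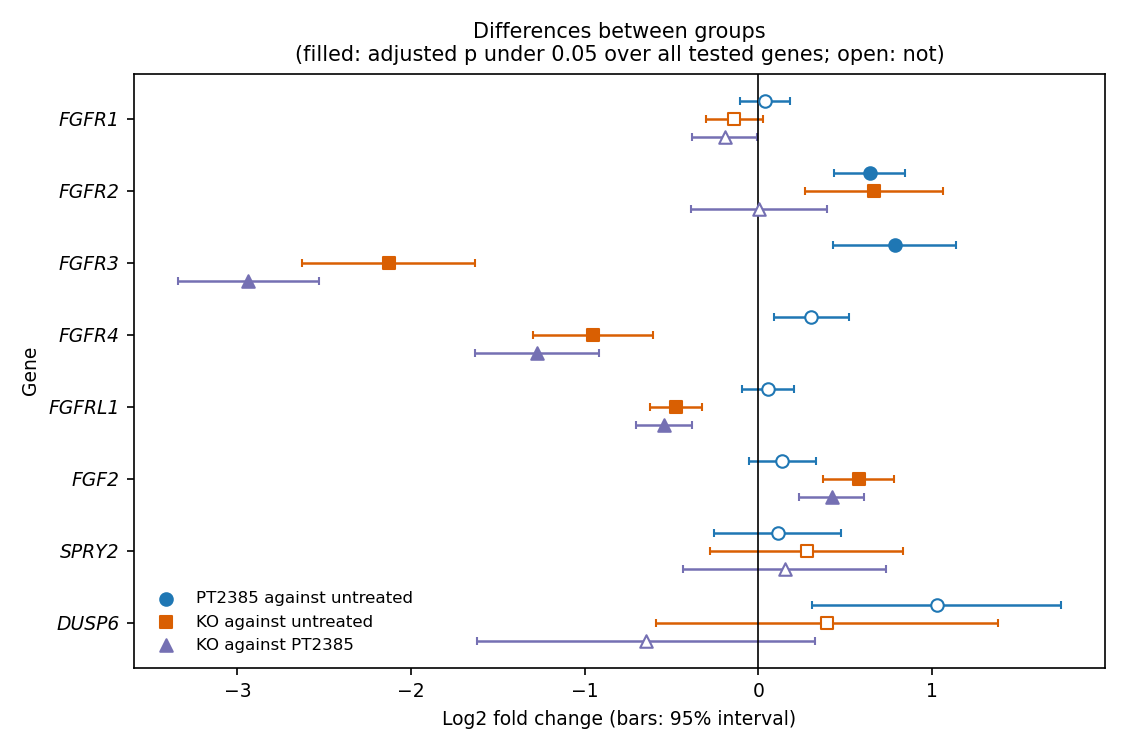
Log2 fold change of the 8 tested genes in the 3 comparisons, with bars for the 95% interval and filled marks where the adjusted p over all tested genes was under 0.05. FGFR3 was at 0.79 with PT2385 and at -2.13 in KO against untreated cells, and FGFR2 at 0.64 and 0.66.

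Of the 10 genes, 8 passed the filter on low counts in each comparison. With PT2385, 2 of the 8 were past the threshold, FGFR2 and FGFR3, both higher. Over all 15089 genes tested, 7.70% were past it, 3.08% higher and 4.62% lower. The groups did not overlap for 3 of the 8, with DUSP6 added, and for 25.9% of all tested genes. With the replicate number as a block, 4 of the 8 were past the threshold: FGFR4 (0.30) and DUSP6 (1.0) were added, and the count over all genes went from 1162 to 2305. Without untreated replicate 2, 1 of the 8 was past it, as FGFR3 (0.78) no longer was. The count over all genes was 581 without that library, 574 without PT2385 replicate 2, 654 without untreated replicate 1 and 728 without untreated replicate 3.

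In KO against untreated cells, 5 of the 8 were past the threshold, with FGFR2 and FGF2 higher and FGFR3, FGFR4 and FGFRL1 lower. Over all 15192 genes tested, 30.1% were past it, 14.7% higher and 15.4% lower. In a check on simulated data, false calls in the KO comparisons exceeded the share that the threshold allows. The groups did not overlap for the same 5 genes and for 44.0% of all tested genes. In KO against PT2385, 4 of the 8 were past it, with FGF2 higher and FGFR3, FGFR4 and FGFRL1 lower, beside 18.8% of 15402 tested genes, of which 8.47% were higher and 10.3% lower. The groups did not overlap for these 4 and for 35.1% of all tested genes. Without PT2385 replicate 2 the count over all genes in that comparison went from 2897 to 1836. The PT2385 and KO comparisons share the untreated libraries, and the comparison of KO with PT2385 shares a group with each, so they are not independent. Since the genes were chosen with these values known, nothing is read from their counts beside those of all genes.

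Between genes, levels can be set side by side only per length, here as CPM per kilobase of all annotated exons. In untreated cells FGFRL1 came first (50.8 ± 3.49), then FGF2 (13.4 ± 1.61), FGFR4 (9.63 ± 1.04), FGFR1 (6.1 ± 0.146) and SPRY2 (3.55 ± 0.565). FGFR3 (1.18 ± 0.23) and FGFR2 (1.07 ± 0.0429) followed with overlapping libraries. Then came DUSP6 (0.367 ± 0.088), SPRY4 (0.0252 ± 0.0216) and SPRY1 (0.0209 ± 0.021), of which the last pair also overlapped. With PT2385 the order was the same, with no overlap between neighbours. In KO, FGFRL1 (36.3 ± 1.83) and FGF2 (19.9 ± 1.81) remained at the top, and FGFR1 (5.5 ± 0.536), FGFR4 (4.94 ± 1.32) and SPRY2 (4.28 ± 1.62) came next with overlapping neighbours. FGFR3 (0.265 ± 0.00964) came after FGFR2 (1.67 ± 0.486) and DUSP6 (0.483 ± 0.288), and the DUSP6 libraries overlapped those of FGFR3. The order depends on the length used. With the MANE Select transcript of each gene, FGFR1 came second in untreated cells (18.4 ± 0.44 per kilobase) as 17201 bases of FGFR1 are annotated as exon and 5697 lie in that transcript. FGF2 (13.7 ± 1.65) then came after FGFR4 (15 ± 1.62), with overlapping libraries, and FGFR2 (4.34) before FGFR3 (1.33), with none.

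None of the 10 genes lies on chromosome 15 or 16, which stood apart in KO. On chromosome 15, 327 of 498 tested genes fell in KO against untreated cells and 10 rose, with a median log2 fold change of -0.57. On chromosome 16, 355 of 719 fell and 19 rose, with a median of -0.35. Of the tested genes elsewhere 11.8% fell, and the median of every other autosome and of X lay between -0.04 and 0.11. Chromosome 15 held 2.61% to 2.65% of the counts in untreated libraries, 2.56% to 2.58% with PT2385, and 1.84%, 1.81% and 1.95% in the KO libraries. Chromosome 16 held 3.99% to 4.06%, 3.87% to 4.1%, and 3.01%, 3.03% and 3.1%. This was looked at after the values were seen, DNA copy number was not measured here, and the cause was not tested. Leaving out the genes of both chromosomes, an alternative chosen after seeing the data, left 5 of the 8 listed genes past the threshold in KO against untreated cells and 4 in KO against PT2385.

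Within 5 megabases on each side of FGFR3, the 72 other tested genes had a median log2 fold change of -0.10 in KO, and 14 of them fell and 4 rose. The median was 0.03 for the 90 tested genes near FGFR4, 0.03 for the 53 near FGFR2 and 0.05 for the 33 near FGF2. FGFRL1 lies in the same stretch of chromosome 4 as FGFR3, with a median of -0.10 over 64 genes.

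**Figure D3:**
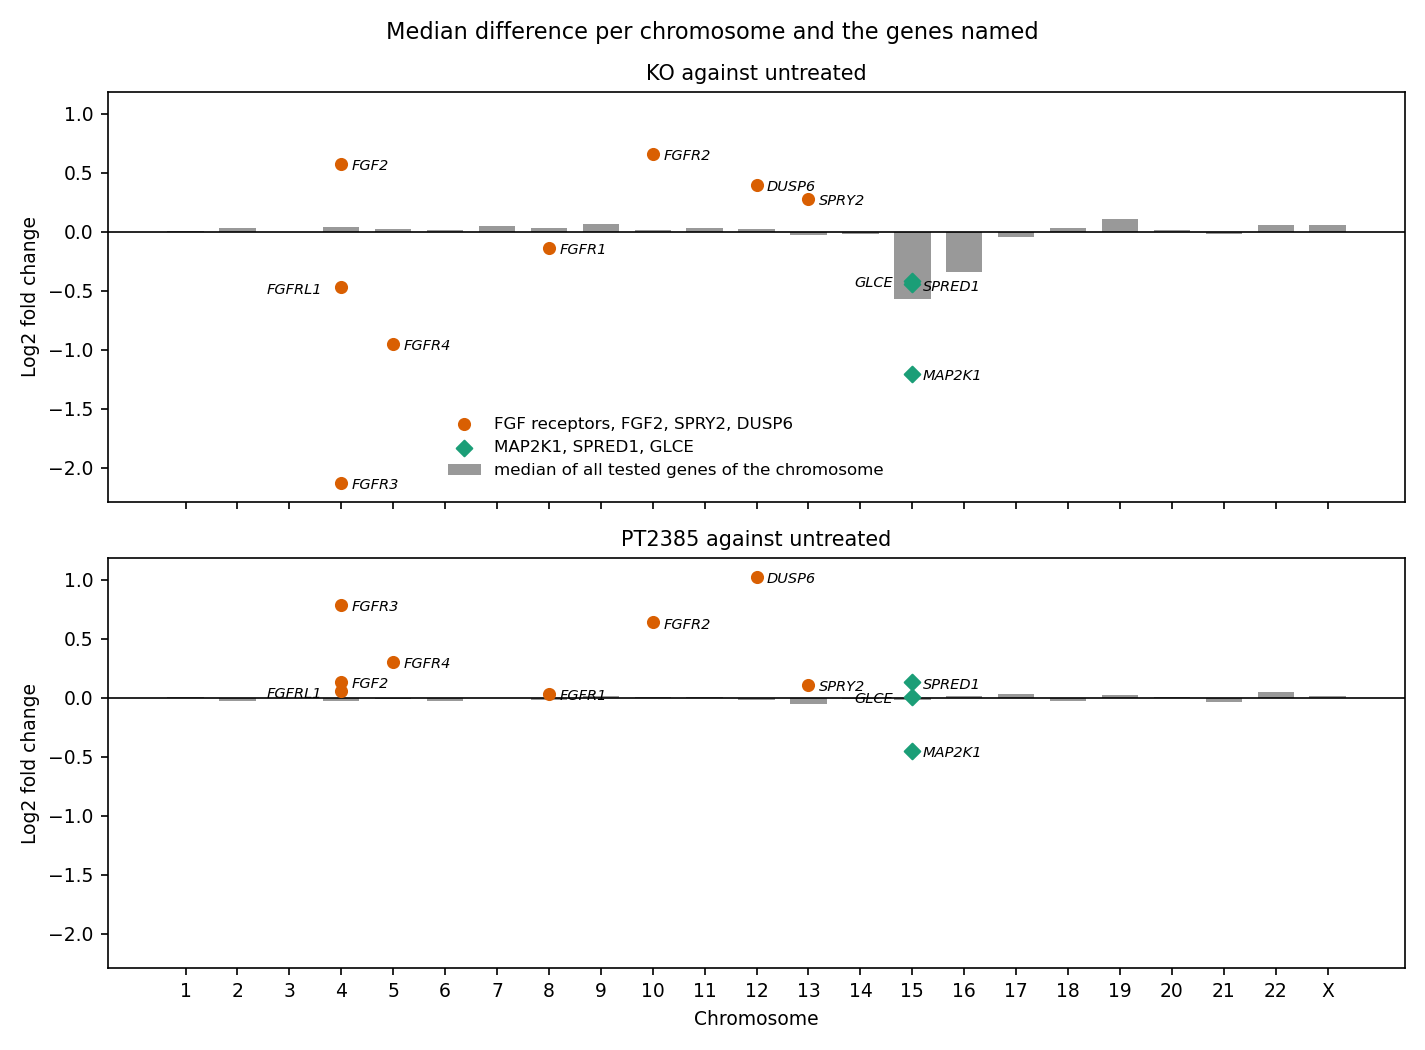
Median log2 fold change of all tested genes of each chromosome (grey bars) in KO and with PT2385 against untreated cells, with the 8 tested genes of the list and pathway genes on chromosome 15. The median was -0.57 on chromosome 15 and -0.35 on chromosome 16 in KO, and -0.02 and 0.02 with PT2385.

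The genes whose pattern over the 9 libraries was nearest to that of FGFR4 were CHRNA5, PIF1 and SYNM, with a root mean square difference of 0.123, 0.151 and 0.194 in centred log2 CPM among 10139 genes compared. All 3 lie on chromosome 15. Nearest to FGFR2 were EPHA4 (0.149), DTWD2 (0.172) and TMEM234 (0.19). EPHA4 had a mean of 17.2 CPM in untreated cells, 26.3 with PT2385 and 23.8 in KO. The nearest genes of FGFRL1 (0.034 to 0.0458, chromosomes 1 and 16) and FGF2 (0.0615 to 0.0645, chromosomes 7, 17 and 19) lay closer. Those of FGFR1 were at 0.031 to 0.0408 and those of SPRY2 at 0.161 to 0.221. Only genes with a mean of at least 100 counts were compared, which left out FGFR3.

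The wider pathway was described by 91 further genes in 6 lists, tested with edgeR's quasi-likelihood test with Benjamini-Hochberg adjustment over all genes. These lists, too, were drawn up with earlier results of these data known, so their adjusted p-values and counts are no independent evidence. With PT2385, 10 of 58 tested genes were past the threshold (17.2%, beside 7.70% of all tested genes), 8 higher and 2 lower. With the replicate number as a block 17 were, 15 higher and 2 lower, beside 2305 of all 15089. The median log2 fold change over the 58 was 0.08, beside 0.00 over all tested genes. Without untreated replicate 2 the count was 4, and without untreated replicate 3 it was 6. In KO against untreated cells, 22 of 56 were past it (39.3%, beside 30.1% of all), 16 higher and 6 lower, with a median of 0.08 beside 0.00, and without untreated replicate 2 the count was 14. In KO against PT2385, 12 of 58 were past it (20.7%, beside 18.8% of all), 5 higher and 7 lower, with a median of -0.03. GLCE, MAP2K1 and SPRED1, which were lower in KO against both other groups, lie on chromosome 15.

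**Figure D4:**
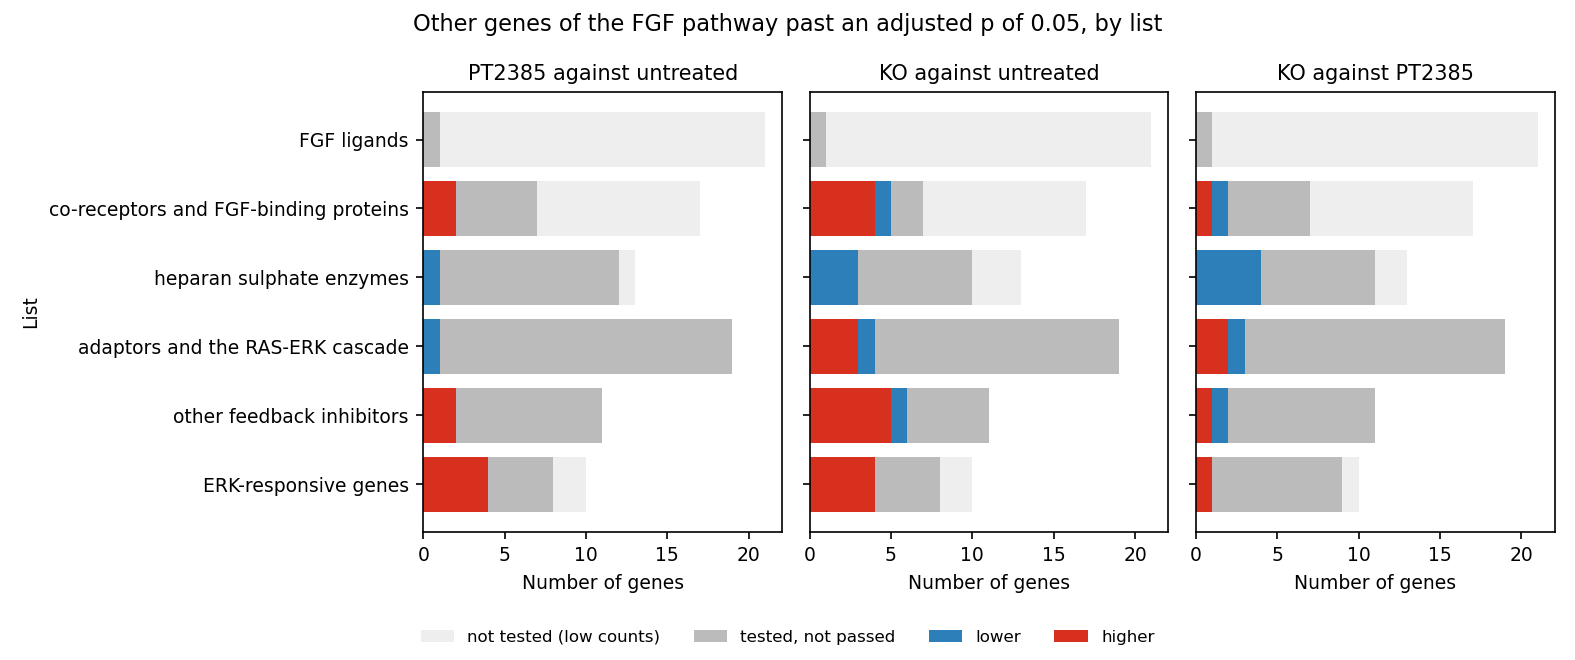
Number of genes of each pathway list that were higher, lower, tested and not past the threshold, or not tested because of low counts, in the 3 comparisons. ERK-responsive genes past the threshold numbered 4 of 8 with PT2385 and 4 of 8 in KO against untreated cells, all higher, and 1 of 9 in KO against PT2385. Of all tested genes, 7.70%, 30.1% and 18.8% were past it in the same order.

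Ligands other than FGF2 were mostly not detected: 16 of the 21 had at most 3 counts in every library, and only FGF5 was tested. FGF5 (ENSG00000138675) had 19.5 ± 2.88 CPM in untreated cells, 20.2 ± 2.38 with PT2385 and 14.8 ± 4.94 in KO. It was past the threshold in no comparison (edgeR's quasi-likelihood test with Benjamini-Hochberg adjustment, adjusted p = 0.879 with PT2385, 0.177 in KO and 0.151 in KO against PT2385). KO replicate 3 was at 20.5 CPM beside 12 and 11.9 in the others. The log2 fold change of FGF5 in KO was -0.39, and -0.70 without that library (edgeR, adjusted p = 0.00134), -0.245 without KO replicate 2, -0.255 without KO replicate 1 and -0.26 without untreated replicate 3. Against PT2385 it was -0.45, -0.77 without KO replicate 3 (edgeR, adjusted p = 0.00215) and -0.309 without KO replicate 2. With 1 library left out, 1 ligand, FGF18, was past the threshold and higher in KO without KO replicate 1 or untreated replicate 1, and against PT2385 without KO replicate 1 or PT2385 replicate 3. FGF18 had 5, 3 and 3 counts in untreated cells, 2, 4 and 8 with PT2385, and 8, 20 and 15 in KO. It was not tested with all libraries, and passed the filter on low counts in these fits through KO libraries alone.

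Among 17 co-receptors and FGF-binding proteins, 7 were tested, and 2 of these rose with PT2385 (28.6%, beside 7.70% of all tested genes), or 4 with the replicate number as a block. Without untreated replicate 2, 1 rose, and without PT2385 replicate 3, 3 rose and 1 fell. SDC2, a syndecan that carries heparan sulphate, had 65.3, 73.9 and 74.9 CPM in untreated cells, 87.5, 103 and 98.5 CPM with PT2385 and 95.7, 129 and 141 CPM in KO. All PT2385 and KO libraries lay above the untreated ones. SDC2 rose by a log2 fold change of 0.43 with PT2385 (standard error 0.0798, edgeR adjusted p = 0.00595) and by 0.78 in KO (standard error 0.122, edgeR adjusted p = 0.000612). The glypican GPC6 rose by 0.45 (edgeR adjusted p = 0.00896) and by 0.57 (edgeR adjusted p = 0.00152). In KO 4 of the 7 rose and 1 fell (71.4%, beside 30.1% of all): SDC3 rose by 0.64 (edgeR adjusted p = 0.000166), GPC1, named after its values were seen, by 0.29 (edgeR adjusted p = 0.0248), and SDC1 was at -0.40 (edgeR adjusted p = 0.00246). SDC3 at 0.55 and SDC1 at -0.48 were also past the threshold in KO against PT2385 (edgeR adjusted p = 0.00132 and 0.00452). KL, a klotho co-receptor of the endocrine FGFs, had at most 2 counts in any library and KLB had 0.

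Of the 13 enzymes that build or trim heparan sulphate, those past the threshold were lower: 1 of 12 tested with PT2385, 3 of 10 in KO and 4 of 11 in KO against PT2385. With the replicate number as a block, 1 was higher and 1 lower with PT2385. In KO 1 was lower without untreated replicate 2 or 3, and against PT2385 2 were without KO replicate 1. With all libraries these are 8.33%, 30% and 36.4% of those tested, beside 7.70%, 30.1% and 18.8% of all tested genes. NDST1, which adds sulphate to the chain, had a mean of 1050 ± 32 CPM in untreated cells, 849 ± 49.6 with PT2385 and 859 ± 85.2 in KO. Its log2 fold change was -0.31 with PT2385 (edgeR adjusted p = 0.00466) and -0.27 in KO (edgeR adjusted p = 0.0149). GLCE, the epimerase of the chain, was at -0.42 in KO (edgeR adjusted p = 0.00582) and HS2ST1, a sulphotransferase, at -0.20 (edgeR adjusted p = 0.0244). GLCE lies on chromosome 15, where the median was -0.57. The 4 against PT2385 include HS6ST2, which had 3, 7 and 2 counts in KO and 23, 21 and 16 with PT2385 and so passed the filter on low counts through the PT2385 libraries alone. With at least 10 counts required in every library, 3 of 8 were lower there. In KO against PT2385, GLCE was at -0.44, HS2ST1 at -0.28 and EXTL3 at -0.33 (edgeR adjusted p = 0.0121, 0.0127 and 0.0167).

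All 19 adaptors and members of the RAS-ERK cascade were tested. The share past the threshold was 5.26% with PT2385, 21.1% in KO and 15.8% in KO against PT2385, beside 7.70%, 30.1% and 18.8% of all tested genes. MAP2K1, which encodes the kinase MEK1, had 71.4, 77.8 and 82.8 CPM in untreated cells, 51.8, 54.8 and 64.1 CPM with PT2385 and 30.5, 31.4 and 37.9 CPM in KO. The 3 groups did not overlap. MAP2K1 was at -0.45 with PT2385 (standard error 0.0872, edgeR adjusted p = 0.00801), where it was the only gene of the list past the threshold (with the replicate number as a block, 2 were higher and 1 lower, and without untreated replicate 2 or PT2385 replicate 2 none was past it), and at -1.20 in KO (standard error 0.0944, edgeR adjusted p = 3.8e-06). MAP2K1 lies on chromosome 15, and the 73 other tested genes within 5 megabases of it had a median of -0.54 in KO. The exons of SNAPC5 overlap it on the opposite strand, with 736 counts against 6482. In KO 3 genes of the list rose: MAP2K2, for MEK2, by 0.36 (edgeR adjusted p = 0.000677), the adaptor GAB1 by 0.85 (edgeR adjusted p = 0.00099) and the adaptor FRS2 by 0.25 (edgeR adjusted p = 0.0149). Against PT2385, KO was at -0.78 for MAP2K1, 1.03 for GAB1 and 0.28 for FRS2 (edgeR adjusted p = 0.000631, 0.00382 and 0.0148).

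All 11 other feedback inhibitors were tested, of which 2 rose with PT2385 (18.2%, beside 7.70% of all tested genes), or 3 with the replicate number as a block, while 5 rose and 1 fell in KO (54.5%, beside 30.1%). With PT2385, 1 rose without untreated replicate 2 or 3 or PT2385 replicate 2, and in KO 3 rose and 1 fell without untreated replicate 2 or with DESeq2. DUSP5, a nuclear phosphatase of ERK, had 8.56, 5.59 and 6.24 CPM in untreated cells, 22.8, 16 and 17.3 CPM with PT2385 and 22.2, 8.43 and 19.7 CPM in KO. KO replicate 2 lay within the untreated range and the other KO libraries did not. DUSP5 rose by 1.45 with PT2385 (standard error 0.179, edgeR adjusted p = 0.000264) and by 1.31 in KO (standard error 0.312, edgeR adjusted p = 0.00836). SPRED2, a sprouty-related inhibitor of RAF activation, rose by 0.31 (edgeR adjusted p = 0.0237) and 0.52 (edgeR adjusted p = 0.00125), and RASA1, a RAS GTPase-activating protein, by 0.48 in KO (edgeR adjusted p = 0.00118). SPRED1 was at -0.45 in KO (edgeR adjusted p = 0.000655) and at -0.60 against PT2385 (edgeR adjusted p = 0.000358). SPRED1 lies on chromosome 15 as well, and its 85 tested neighbours within 5 megabases had a median of -0.59 in KO. SPRED3 at 0.86 and IL17RD at 0.71 were the others past the threshold in KO (edgeR adjusted p = 0.0139 and 0.0342), named after their values were seen. IL17RD was also at 0.76 in KO against PT2385 (edgeR adjusted p = 0.028). CCNH exons overlap those of RASA1 on the opposite strand, with 2997 counts against 10543.

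Genes that respond to ERK activity were higher where they were past the threshold, but FOSL1, IER3 and EPHA2 were past it in no comparison. In untreated cells, with PT2385 and in KO, FOSL1 had a mean of 130, 142 and 132 CPM. IER3 had 73.3, 76.6 and 74 CPM in the same order, and EPHA2 326, 353 and 366. With PT2385, 4 of 8 tested rose: EPHA4 by 0.61, PHLDA1 by 0.52, ETV1 by 1.07 and EGR1 by 1.75 (edgeR adjusted p = 0.00407, 0.0142, 0.0338 and 0.0467). The 4 are 50% of those tested, beside 7.70% of all genes, and the median of the 8 was 0.43. EGR1 had few counts, 15, 4 and 9 in untreated cells and 52, 18 and 35 with PT2385. Only untreated replicate 1 of its group had over 10, so EGR1 passed the filter on low counts through the PT2385 libraries. With at least 10 required in every library, which leaves EGR1 out, 3 of 7 rose. With PT2385, 1 of 8 rose without untreated replicate 2 or 3, 2 without untreated replicate 1 or PT2385 replicate 1, and 5 with the replicate number as a block. In KO, 4 of 8 rose: ETV5 by 0.76, ETV1 by 1.67, PHLDA1 by 0.48 and EPHA4 by 0.48 (edgeR adjusted p = 0.000124, 0.00143, 0.0153 and 0.0483), with a median of 0.48, beside 30.1% of all genes past the threshold, and 2 rose without untreated replicate 2 or 3. For PHLDA1 the KO and untreated libraries overlapped, with KO replicate 2 at 107 CPM and untreated replicate 1 at 109. ETV5, an ETS transcription factor, had 20.3, 25.2 and 22.3 CPM in untreated cells, 26.8, 27 and 32 CPM with PT2385 and 38, 36.9 and 38.8 CPM in KO, with no overlap between the groups. Its exons overlap those of DGKG on the same strand, which had 3578 counts against 3556 for ETV5. ETV5 was the 1 gene of 9 tested that was past the threshold in KO against PT2385 (11.1%, beside 18.8% of all tested genes). It was at 0.40 there (edgeR adjusted p = 0.0115) and lost the call without PT2385 replicate 2 (edgeR adjusted p = 0.0701).

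Several of these calls were lost on leaving out 1 library, where fewer libraries are tested, while most folds stayed near their values. With PT2385, those of GPC6, MAP2K1, SPRED2, PHLDA1, ETV1 and EGR1 were lost without untreated replicate 2 (edgeR adjusted p = 0.0582, 0.0527, 0.128, 0.0914, 0.121 and 0.19). MAP2K1 and SPRED2 also lost theirs without PT2385 replicate 2, SPRED2, PHLDA1 and EGR1 without untreated replicate 3, EGR1 without untreated replicate 1 or PT2385 replicate 1, and ETV1 without any 1 of the 6 libraries. In these fits MAP2K1 was at -0.425 and -0.437, SPRED2 at 0.284 to 0.338 and ETV1 at 0.96 to 1.21, while EGR1 ranged from 1.28 to 2.27. SDC2, NDST1, DUSP5 and EPHA4 kept theirs whichever library was left out. In KO against untreated cells, NDST1, HS2ST1, FRS2, PHLDA1, EPHA4, GPC1, SPRED3 and IL17RD lost theirs without untreated replicate 2 (edgeR adjusted p from 0.0506 to 0.143), and all of these but FRS2 and SPRED3 also without untreated replicate 3. Other single libraries ended calls there as well: untreated replicate 1 for HS2ST1, FRS2 and EPHA4, KO replicate 1 for HS2ST1, PHLDA1, GPC1 and IL17RD, and KO replicate 2 for EPHA4, whose fold was then 0.24, and IL17RD. In KO against PT2385, HS2ST1, FRS2 and IL17RD lost theirs without PT2385 replicate 2, EXTL3 and IL17RD without PT2385 replicate 3, HS2ST1, EXTL3 and IL17RD without KO replicate 1, and FRS2 and IL17RD without KO replicate 2.

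Over SPRY2, DUSP6, the 11 other inhibitors and the 8 ERK-responsive genes, KO replicate 2 was the lowest of the 3 KO libraries for 14 of 21 genes (66.7%), beside 32.6% of 14737 genes tested. KO replicates 1 and 3 were the lowest for 3 and 4. The untreated libraries were the lowest of their group for 10, 8 and 3 of the 21, and the PT2385 libraries for 8, 9 and 4. This was noticed after the values were seen, and its cause was not tested. Without KO replicate 2, 5 of the 11 other inhibitors rose and 1 fell, and 4 of the 8 ERK-responsive genes rose, in KO against untreated cells. Over all genes, 3961 of 15513 tested were past the threshold in that fit, beside 4566 of 15192 with all libraries. The counts of both lists equal those with all libraries, but IL17RD and EPHA4 were no longer among the genes past the threshold and others were.

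**Figure D5:**
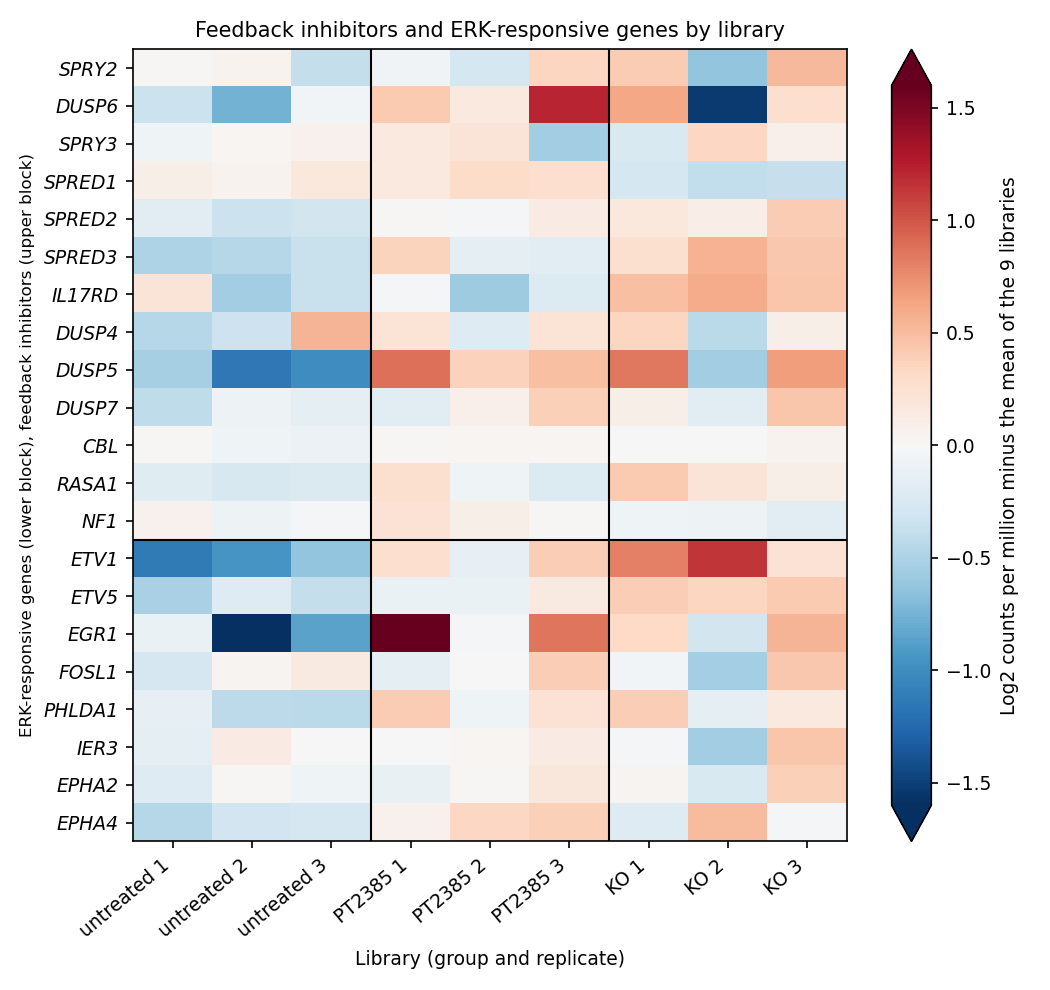
Log2 CPM of 13 feedback inhibitors and 8 ERK-responsive genes in each library, minus the mean of the 9 libraries, with red above and blue below that mean. In KO replicate 2, DUSP6 was at -1.53, DUSP5 at -0.56 and SPRY2 at -0.63, below the other KO libraries.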

How the data were processed

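The authors checked reads with FastQC, trimmed them with cutadapt, aligned them with STAR to hg38 and deposited raw counts per gene from featureCounts. Versions, annotation release and strand setting are not given in the sources used here. The 10 genes and the 6 pathway lists were chosen with earlier results of these data known. Each pair of groups was fitted on its own in edgeR 4.0.16 (R 4.3.3, limma 3.58.1) with TMM scaling, filterByExpr (minimum count 10) and the quasi-likelihood test, with Benjamini-Hochberg adjustment over all tested genes and a threshold of 0.05. In a check on simulated data, the share of false calls lay above this threshold in the KO comparisons. Symbols and positions come from GENCODE 44, and printed CPM are scaled by TMM over the 9 libraries. Of each pathway list, the 4 genes past the threshold with the lowest p were named, or the most abundant tested gene where none was. Deviations of same-numbered libraries correlated at 0.452, 0.137 and 0.43 over 10140 genes in PT2385 against untreated. The labels give replicate numbers but no pairing, and libraries of unlike number were not compared. Whether the numbers pair samples is thus not established, and the main fits use no block. DESeq2 1.42.0, other scalings, filters, a replicate block, a model of all 9 libraries and leaving out each library were tried.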

Additional observations from a re-analysis of the deposited data

How the results depend on the processing

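Of 358 alternatives run on the folds of the 8 tested genes, 337 kept the direction and the side of the threshold, as did 624 of 696 for the named pathway genes. In PT2385 against untreated, the count over all genes was 2305 with the replicate block and 574 to 1451 on leaving out a library, that of the 10 genes 4 with the block, 5 with no filter on low counts and 1 to 3, and that of the pathway genes 17 with the block and 4 to 12. The block changed no other call of the 10 genes there. On leaving out a library, the pathway count in KO against untreated ran from 14 to 26, and the count over all genes in KO against PT2385 from 1836 to 3190. On leaving out a library, the log2 fold change with PT2385 ran from -0.00909 to 0.0722 for FGFR1, -0.0735 to 0.234 for SPRY2 and -0.0497 to 0.174 for FGF5, and in KO against PT2385 from -0.0661 to 0.439 for SPRY2 and -0.185 to 0.212 for FGFR2. FGFR2 was there at -0.0102 with library size alone, -0.0238 with the replicate block and -0.0136 without the genes of chromosomes 15 and 16. The cause was not tested. In the KO comparisons the correlations between same-numbered libraries were 0.315, 0.0552 and 0.479 against untreated, and 0.343, 0.0909 and 0.414 against PT2385. As in PT2385 against untreated, these do not establish whether the numbers pair samples. In the KO comparisons the block gave 5501 and 3783 genes, 5 and 4 of the 10, and 28 and 18 pathway genes.
SDC2 and SPRED2 (all 9 libraries in a model) and ETV1 (that model and DESeq2) lost their calls with PT2385, and in KO so did HS2ST1 (DESeq2 or no filter), SPRED3 and IL17RD (DESeq2, IL17RD against PT2385 too) and EPHA4 (library size alone, a stricter filter, or without chromosomes 15 and 16). FGF5 gained a call in KO against both other groups with the block or no filter. With no filter 1 of 10 ligands tested was higher in each, FGF18, which had at most 8 counts in any library outside KO. At this depth SPRY1 and SPRY4 did not pass the filter on low counts.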
